A study of Eriobotrya japonica with 9 samples.

Results

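The response of loquat leaves to salt was described here across the whole transcriptome, apart from the TIFY family. Its members were the 22672 genes, of 43996 in the deposited table, whose FPKM (a read count normalised to gene length and library depth) reached 1 in 3 or more of the 9 libraries, once the TIFY identifiers of the study had been left out. *Eriobotrya japonica* seedlings were either watered throughout (CK) or watered and then exposed to 200 mmol/L NaCl (ST), and leaves were sampled on day 10, with 3 libraries in each group. The labels and the methods text give the dose in mmol/L, while elsewhere in the study the same figure stands in mg/L, and the description field of the samples reads nucleus although the source is leaf and the molecule total RNA. A further group of 3 libraries (MTST), pretreated at the roots with 150 µmol/L melatonin and then given the same NaCl, entered the filter, the scaling and the estimate of the spread but is not described. The study describes the samples of a group as biological replicates, and whether 1 library holds leaves of 1 seedling or of several is not given in the sources used here. No file pairs gene identifiers with names, so genes are described by the KEGG maps and GO terms that the authors deposited with the values, and identifiers are printed for 4 genes only.

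Salt reaches a leaf as a shortage of water and as an excess of sodium and chloride ions. Plants are known to answer it with abscisic acid signalling, export or vacuolar storage of ions, compatible solutes such as raffinose-family sugars and proline, and changes of the cuticle and the cell wall, while light capture and carbon assimilation are commonly reduced. The transcripts of photosynthesis are among the most abundant of any leaf, so a change in them moves the share of the library that is left for all other genes.

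The libraries held 13048770 to 13951747 reads, and 26697 to 27016 genes were above 0 in CK against 28062 to 28205 in ST. The median absolute log2 difference between libraries was 0.126, 0.174 and 0.206 within CK, 0.181, 0.143 and 0.232 within ST, and 0.365 to 0.420 between the groups. The 2 libraries farthest apart within a group were ST1 and ST2, and the values of many induced genes given below differ between them. The leaf label was met by the maps of photosynthesis and antenna proteins, which together held abundant transcripts in every library, with a summed antenna level of at least 19564 scaled FPKM. Of the terms for other tissues and states, nutrient reservoir activity, a seed term, had 3 tested genes of 7 and 4 at 0 in all 6 libraries, and its summed level was 64.1 to 67.6 in CK and 76.99 to 81.9 in ST. Summed levels of pollen exine formation genes were 544 to 559 and 519.7 to 566, those of root hair elongation 945 to 1286 and 923 to 985, and those of the DNA replication map, which marks dividing cells, 402 to 440.3 and 414 to 466, and the ranges of CK and ST overlapped in all 3. Of the genes with these 3 annotations, 6 of 34, 6 of 51 and 25 of 110 were at 0 in all 6 libraries. The overlap of the sums does not mean that single genes were unchanged. Of 18 tested pollen exine formation genes, 9 were higher in ST and 2 lower, with a median log2 fold change of 0.4 relative to all genes. Their rises numbered 5 without CK1, 4 without CK2 and 5 without ST3. The same medians were -0.03 for root hair elongation and 0.12 for the DNA replication map. Microtubule motor genes, a second term for dividing cells, summed to 292 to 296 in CK and 279.6 to 358 in ST. Leaf senescence genes summed to 1020 to 1153 in CK and 1352 to 2884 in ST, with 11 of 53 tested genes higher in ST and 12 lower, and the part of these tissues and states in the results was not tested.

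Salt changed the leaf transcriptome broadly and almost evenly in both directions when each library's FPKM was divided by a median-of-ratios factor, a scaling set by the typical gene rather than by the total (called scaled FPKM below). In ST, 5185 of the 22672 genes were higher (22.9%) and 5478 were lower (24.2%) by limma at an adjusted p no larger than 0.05, and 12009 did not pass. By at least 2-fold, 1700 genes rose (7.5%) and 1584 fell (6.99%). The largest changes were mostly rises, since 167 genes rose and 33 fell by at least 8-fold, and 63 rose and 13 fell by at least 16-fold. The middle of the distribution was narrow, with log2 fold changes from -0.34 to 0.36 between the 25th and 75th percentiles, a median of 0.008 and a median standard error of 0.137. Fold changes are on the log2(scaled FPKM + 1) scale, on which the changes of genes with few reads come out too small.

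The balance of rises and falls depended on the scaling. Median-of-ratios scaling places the typical gene near 0, which by itself favours a near-even split. When FPKM was rescaled to TPM, so that each library had the same total, the median of all genes moved to 0.41, and 12153 genes rose (53.6%) against 2457 that fell (10.8%), so that rises made up 83.2% of the calls instead of 48.6%. With FPKM as deposited the median was 0.33, with 10919 genes higher and 2798 lower. All 5185 genes that rose with median-of-ratios scaling also rose with TPM, and 2457 of the 5478 that fell also fell with TPM, while 40 of those that fell rose with TPM. The total amount of mRNA per leaf was not measured, so neither scaling gives changes in absolute amount, and in bulk leaf samples fewer cells of a type and less RNA per cell cannot be told apart. The changes of gene lists are therefore given relative to the median of all genes, and the counts with TPM stand beside most of the main ones. These relative medians also depend on the filter, since without it more weakly expressed genes enter and the median was nearer to 0 in 173 of 216 lists. Within a list, the largest rise and the largest fall are those among genes that passed the test with a mean of at least 5 scaled FPKM.

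**Figure D1:**
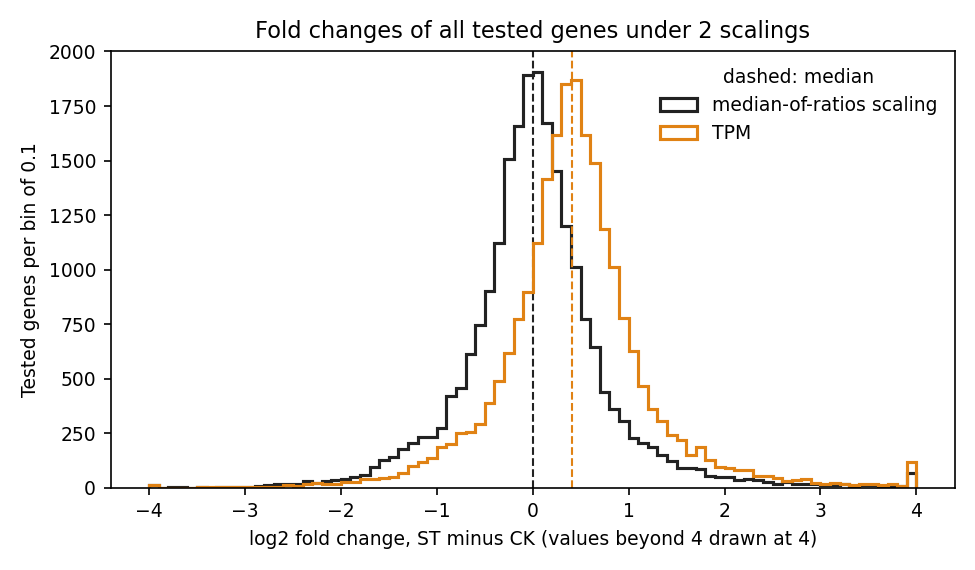
Histogram of the log2 fold change (ST minus CK) of the 22672 tested genes in bins of 0.1, with median-of-ratios scaling (black) and TPM (orange), and dashed lines at the medians. The orange curve has nearly the same shape but lies to the right, with a median of 0.41 instead of 0.008.

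Falls were concentrated among the abundant transcripts. The 10 most abundant genes of CK all fell, with a median log2 fold change of -1.59, and their share of all FPKM was 11.3% ± 0.193 (SD, n = 3) in CK and 5.02% ± 0.393 (SD, n = 3) in ST. Of the 100 most abundant genes of CK, 91 fell and 2 rose, and together they held 28.5% of all FPKM in CK and 15.5% in ST. These genes were chosen on their CK level, which favours falls, and 66 of the 100 were also among the 100 most abundant genes of ST. The most abundant gene of both groups, which is on the maps of carbon fixation and glyoxylate metabolism and carries the term chloroplast, had 27591, 28204 and 28868 scaled FPKM in CK and 8952, 9529 and 9452 in ST. Its log2 fold change was -1.60 (SE 0.21, limma adjusted p = 0.00018), its share of all FPKM was 3.41% to 3.51% in CK and 1.53% to 1.57% in ST, and every ST library lay far below every CK library.

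When all tested genes were divided into 10 equal bins by the mean of their CK and ST levels, the share that fell increased from each bin to the next. In the lowest bin, with means of up to 1.65 scaled FPKM, 7.28% fell and 25.9% rose. In the highest bin, with means of at least 54.3 scaled FPKM, 53.8% fell and 16.5% rose, and the median log2 fold change was -0.37. Genes that fell had a median of 23.9 scaled FPKM in CK and 14.1 in ST, and genes that rose had medians of 5.02 and 10.7. These classes are defined by the change itself, so a comparison on CK alone favours a higher level of the genes that fell. The gene lengths recovered from the FPKM values were alike, with medians of 1555 bases for the genes that rose, 1539 for those that fell and 1634 for the others, and so were the shares of genes with a KEGG map (22.1%, 23.5% and 21.9%).

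**Figure D2:**
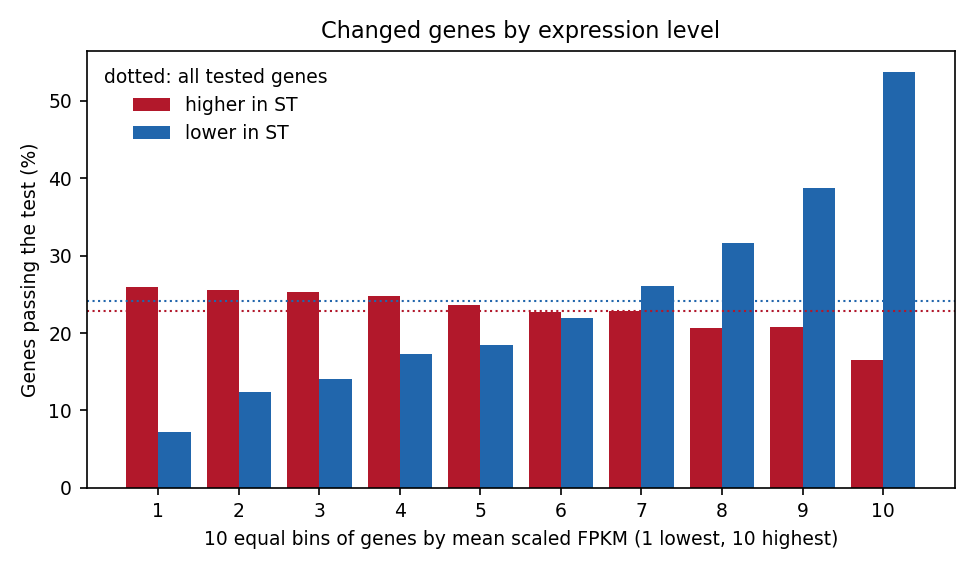
Share of genes that passed the test in 10 equal bins of the tested genes by mean scaled FPKM (2267 or 2268 genes a bin), higher in ST in red and lower in ST in blue, with dotted lines for all tested genes. The blue bars climb from 7.28% to 53.8%, while the red bars go from 25.9% to 16.5%.

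Among the genes on a KEGG map with a mean of at least 5 scaled FPKM and no overlap between the groups, the largest rise was that of Ej00025213, which is on the maps of amino sugar and nucleotide sugar metabolism and of plant MAPK signaling. It had 0.0614, 0 and 0 scaled FPKM in CK and 141, 177 and 156 in ST, that is 1 read in the 3 CK libraries together and 9803 in the 3 ST libraries. The ratio of ST to CK was 7740.3, with an exact 95% counting interval of 1389 to 305756, and the fitted log2 fold change, which depends on the pseudocount, was 7.28 (SE 0.18, limma adjusted p = 3.4e-08). The 3 ST libraries were close to each other for this gene. Ej00073557, on the map of linoleic acid metabolism, from which oxylipins are made, had 0.0283, 0 and 0 scaled FPKM in CK and 27.6, 239 and 169 in ST. Its fitted log2 fold change was 6.71 (SE 0.96, limma adjusted p = 0.00031), ST1 was far below ST2 and ST3, and limma-voom on the reads did not call it (adjusted p = 0.17).

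The largest fall among the same genes was that of Ej00029203, a gene on the phagosome map, with 59.96, 77.6 and 19.3 scaled FPKM in CK and 0.802, 1.18 and 1.40 in ST (log2 fold change -4.44, SE 0.41, limma adjusted p = 1.7e-05). CK3 was well below CK1 and CK2 but above all ST libraries. Next was Ej00034194, on the galactose metabolism map and annotated with inositol 3-alpha-galactosyltransferase activity, the step that makes galactinol, the galactose donor of raffinose-family sugars. Its values were 60.2, 66.9 and 50.9 scaled FPKM in CK and 2.23, 2.23 and 1.47 in ST (log2 fold change -4.34, SE 0.15, limma adjusted p = 8.3e-08). The ratio of CK to ST in scaled reads had an exact 95% counting interval of 25.1 to 36.1, and the replicates of each group were close.

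The light reactions of photosynthesis fell almost as a block. On the map of antenna proteins, which bind chlorophyll and pass light energy to the photosystems, 25 of 27 tested genes fell and 1 rose (23 and 1 with TPM), and the median log2 fold change was -1.30 relative to all genes. These genes held 5.99% ± 0.607 (SD, n = 3) of all FPKM in CK and 3.43% ± 0.192 (SD, n = 3) in ST. On the photosynthesis map, which holds photosystem, cytochrome, electron carrier and ATP synthase subunits, 48 of 61 tested genes fell and 2 rose (43 and 3 with TPM), with a relative median of -1.18. Its genes held 6.61% ± 0.262 (SD, n = 3) of all FPKM in CK and 3.81% ± 0.221 (SD, n = 3) in ST. All 19 tested genes with the term chlorophyll binding fell (17 with TPM), with log2 fold changes between -1.65 and -0.61.

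The member of the photosynthesis map that fell most, a gene annotated with electron transport in the cyclic and noncyclic pathways, had 974, 1073 and 845 scaled FPKM in CK and 199.8, 229 and 215 in ST (log2 fold change -2.16, SE 0.11, limma adjusted p = 5.1e-07). The antenna gene that fell most had 583, 565 and 769 in CK and 172, 121 and 155 in ST, with a log2 fold change of -2.09. A single antenna gene went the other way. It carries the term chloroplast thylakoid membrane and had 38.6, 43.5 and 43.9 scaled FPKM in CK and 463, 409.5 and 578 in ST, a log2 fold change of 3.48 (SE 0.12, limma adjusted p = 8.3e-08), so that ST was above CK in every library while the other changed antenna genes were below.

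Falls extended to the machinery that makes and keeps the plastid. Of the genes with the term thylakoid, 279 of 434 tested genes fell and 41 rose (191 and 103 with TPM), and of those with the wider term chloroplast, 864 of 1948 fell and 296 rose, a direction that turned with TPM (469 fell and 788 rose). A number of smaller terms were chosen after their values were seen, from all GO terms with at least 5 tested genes of which at least 70% changed in the same direction. Among them, 8 of 9 genes with sigma factor activity, which direct the plastid's bacterial-type RNA polymerase, fell and none rose. Of the Clp protease complex of the chloroplast, 10 of 11 genes fell, of the plastid ribosome 7 of 10, and of plastoglobules, the lipid droplets of the thylakoid, 50 of 63. With TPM these counts of falls were 5, 7, 4 and 40.

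Pigment synthesis fell as well. On the porphyrin map, which leads to chlorophyll and heme, 31 of 59 tested genes fell and 4 rose, with a relative median of -0.35, and with TPM 12 fell and 18 rose. On the carotenoid map, 21 of 34 tested genes fell and 4 rose (17 and 9 with TPM), with a relative median of -0.67 (-0.13 without the filter on low values). The carotenoid gene that fell most had 447, 469 and 467 scaled FPKM in CK and 107, 105 and 96.1 in ST, and the one that rose most, a monooxygenase also annotated with brassinosteroid metabolism, had 14.6, 14.5 and 15.9 in CK and 115, 170.1 and 141 in ST, with log2 fold changes of -2.16 and 3.14. The groups did not overlap for either gene.

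Carbon assimilation and photorespiration, the salvage of the product of Rubisco's oxygenase reaction, were lower but more mixed than the light reactions. On the carbon fixation map, 46 of 89 tested genes fell and 20 rose (42 and 37 with TPM), with a relative median of -0.57, and its genes held 5.75% ± 0.0345 (SD, n = 3) of all FPKM in CK and 2.89% ± 0.0623 (SD, n = 3) in ST. On the map of glyoxylate and dicarboxylate metabolism, which holds photorespiration, 45 of 81 tested genes fell and 13 rose (35 and 28 with TPM), with a relative median of -0.50 (-0.31 without the filter). Both maps spread widely, from -3.25 to 1.96 and from -2.42 to 2.70 in log2 fold change. The carbon fixation gene that fell most had 15.4, 13.1 and 22.6 scaled FPKM in CK and 1.01, 0.632 and 0.958 in ST, and the glyoxylate map's gene that rose most, a gene with the term chloroplast, had 21.8, 19.6 and 21.9 in CK and 140.3, 148 and 139 in ST.

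Some smaller terms, chosen after their values were seen, fell almost whole. All 7 genes with fructose 1,6-bisphosphate 1-phosphatase activity, an enzyme of the Calvin cycle and of sucrose synthesis, fell under both scalings, with log2 fold changes of -0.96 to -1.70. The one that fell most had 148, 153 and 145 scaled FPKM in CK and 46.1, 41.1 and 49.1 in ST. Of the genes of sucrose biosynthesis 8 of 9 fell, of glycine metabolism 9 of 10, and of isoamylase activity, which trims branched starch, 5 of 6. With TPM, 7, 6 and 3 of them fell.

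Nitrogen assimilation and protein synthesis lay below the median of all genes, by less. On the nitrogen metabolism map 15 of 34 tested genes fell and 8 rose (rises were 5 without CK2), and with TPM 11 fell and 13 rose. Its largest fall was a carbonate dehydratase gene, an enzyme that interconverts carbon dioxide and bicarbonate, with 15.8, 17.6 and 8.88 scaled FPKM in CK and 1.37, 1.28 and 1.59 in ST. Its largest rise was a glutamate dehydrogenase gene, which releases or binds ammonium, with 4.08, 2.81 and 5.92 scaled FPKM in CK and 15.1, 16.4 and 19.5 in ST. Of the aminoacyl-tRNA map, whose enzymes load tRNAs with amino acids, 47 of 87 fell and 3 rose, with a relative median of -0.30, whereas with TPM 9 fell and 25 rose.

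The ribosome map had 327 tested genes, of which 85 fell and 42 rose, with a relative median of -0.10, and with TPM 18 fell and 195 rose. Its genes with a chloroplast or plastid term (88 genes) included 37 that fell and 7 that rose, against 24 and 12 of the 115 genes that carry other GO terms only. Of the 124 genes of the map with no GO term, 24 fell and 23 rose. The relative medians of these parts were -0.19, -0.11 and -0.02, so that the shift was largest in the plastid part, which held 37 of the 85 genes that fell. Ribosome biogenesis had 8 of 110 genes higher and 22 lower, both below the background of all genes (rises were 5 without ST2), and with TPM 46 and 3. The map of oxidative phosphorylation, the mitochondrial respiratory chain, had 33 of 142 higher and 21 lower, and the citrate cycle 18 of 72 higher and 17 lower, with TPM counts of 103 and 7 and of 46 and 7, and medians of 0.06 and 0.01 relative to all genes.

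**Figure D3:**
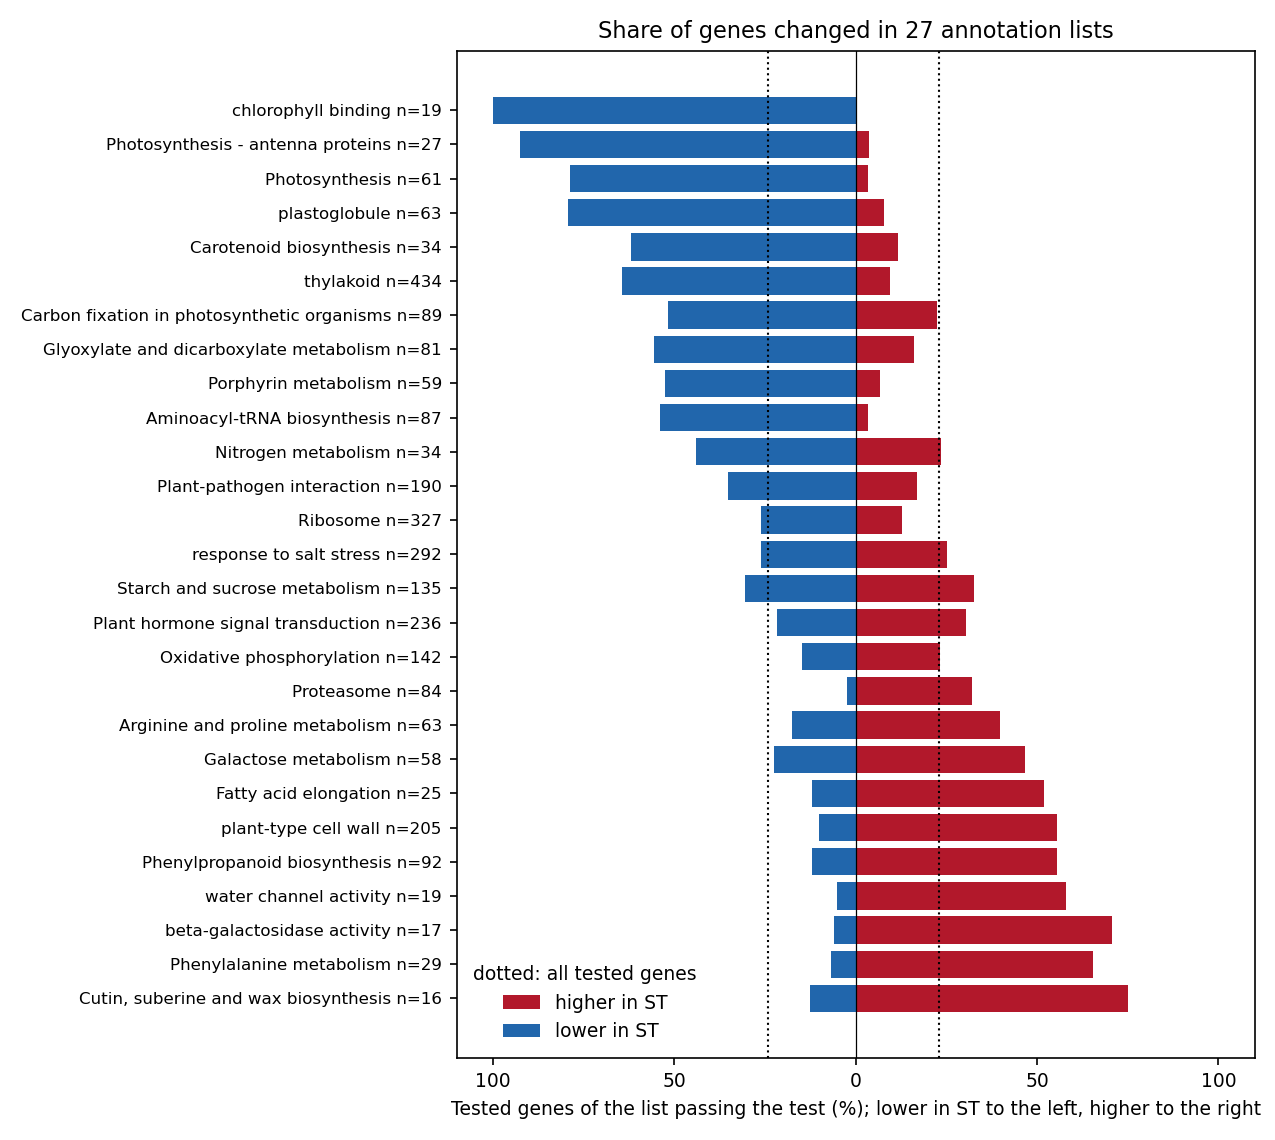
Share of the tested genes of 27 KEGG maps and GO terms that were lower in ST (blue, to the left) or higher in ST (red, to the right), with median-of-ratios scaling, where n is the number of tested genes and dotted lines mark the shares of all tested genes, 24.2% and 22.9%. Lists of light capture and plastids reach furthest to the left and those of the cuticle, phenylalanine metabolism and beta-galactosidases furthest to the right. The plastoglobule, plant-type cell wall and beta-galactosidase terms were chosen after their values were seen, and the directions of porphyrin metabolism, aminoacyl-tRNA biosynthesis, nitrogen metabolism, plant-pathogen interaction, ribosome and response to salt stress turn with TPM.

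Sugar and osmolyte metabolism changed in both directions. On the starch and sucrose map 44 of 135 tested genes rose and 41 fell (70 and 28 with TPM), both above the shares of all genes, with a relative median of 0.01, so that more genes moved than was typical without a common direction. Its largest rise was a beta-glucosidase gene, also on the phenylpropanoid map, with 0.0548, 0 and 0 scaled FPKM in CK and 16.6, 245 and 165 in ST. Its largest fall was another beta-glucosidase gene on the same maps, with 13.1, 13.5 and 12.7 scaled FPKM in CK and 0.0433, 0.498 and 0.257 in ST. The galactose map, which holds raffinose-family synthesis and beta-galactosidases, had 27 of 58 genes higher and 13 lower (38 and 8 with TPM), with a relative median of 0.35. Its gene with the largest rise, which is also on the starch and sucrose map, had 1.53, 1.10 and 1.68 scaled FPKM in CK and 23.3, 59.8 and 44.8 in ST.

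The galactinol step of that map was split. Ej00034194 was the member that fell most. Another gene with inositol 3-alpha-galactosyltransferase activity, which also carries the term response to desiccation, had 45.97, 46.3 and 41.97 scaled FPKM in CK and 78.2, 185 and 137 in ST (log2 fold change 1.47, SE 0.32, limma adjusted p = 0.0039). For trehalose, a disaccharide whose phosphate acts as a sugar signal, 6 of 14 tested genes rose and 4 fell (8 and 2 with TPM). A trehalose-phosphatase gene fell from 105, 106 and 88.4 scaled FPKM in CK to 14.6, 16.5 and 15.7 in ST, and another gene of the term had 2.57, 3.23 and 2.03 in CK and 10.9, 14.8 and 14.9 in ST. On the arginine and proline map, 25 of 63 tested genes rose and 11 fell (44 and 4 with TPM), with a relative median of 0.16. The largest fall there was an adenosylmethionine decarboxylase gene, which supplies polyamine synthesis, with 179, 187 and 186 scaled FPKM in CK and 61.7, 43.5 and 43.7 in ST.

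Genes of the leaf surface rose for the most part. On the map of cutin, suberine and wax biosynthesis, which makes the waterproof layers of the epidermis, 12 of 16 tested genes rose and 2 fell (14 and 2 with TPM), with a relative median of 1.91, and 11 of them rose by at least 2-fold. Without the filter on low values the map had 30 genes, of which 11 rose and 3 fell, and its relative median was 0.06. With limma-voom on the reads it was 2.88. Its largest rise had 1.48, 0.898 and 3.67 scaled FPKM in CK and 72.6, 24.2 and 44.3 in ST (log2 fold change 3.97, SE 0.4, limma adjusted p = 3.3e-05). ST1 was the highest and ST2 the lowest of the ST libraries, and CK3 the highest of CK. Fatty acid elongation, which makes the long chains of waxes, followed, as 13 of 25 tested genes rose and 3 fell (20 and 1 with TPM), with a relative median of 0.40. Its largest rise, a gene that is also on the plant-pathogen map and is annotated to the endoplasmic reticulum, had 3.16, 2.68 and 7.13 scaled FPKM in CK and 67.5, 19.3 and 39.7 in ST, in the same order of libraries.

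Phenylpropanoid metabolism, which leads from phenylalanine to lignin and other phenolics, rose as well. On that map 51 of 92 tested genes rose and 11 fell (66 and 7 with TPM), with a relative median of 0.71 (0.15 without the filter, over 166 genes), and its genes held 0.265% ± 0.0238 (SD, n = 3) of all FPKM in CK and 0.639% ± 0.0675 (SD, n = 3) in ST. Of phenylalanine metabolism, 19 of 29 tested genes rose and 2 fell (25 and 2 with TPM). Phenylalanine ammonia-lyase opens the pathway, and 4 of 5 of its genes rose and none fell, a term chosen after its values were seen. One of them had 16.6, 14.6 and 24.2 scaled FPKM in CK and 57.9, 39.4 and 46.3 in ST, and the highest log2 fold change of the 5 genes, in a gene of lower level, was 2.71. Of the genes of lignin biosynthesis, 11 of 25 tested genes rose and 2 fell (17 and 2 with TPM). Their relative median was 0.47, and 0.16 over 38 genes without the filter. The flavonoid map did not stand out, with 8 of 32 genes higher and 7 lower (16 and 3 with TPM). Its falls numbered 3 without CK3, 4 without ST2 and 4 without ST3. By at least 2-fold, 6 of its genes rose and 2 fell, and its log2 fold changes ran from -2.22 to 3.6. Its naringenin-chalcone synthase gene, the entry to flavonoids, had 201, 157 and 295 scaled FPKM in CK and 86.2, 59.7 and 72.4 in ST.

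Cell wall genes rose broadly. Of the genes with the term cell wall, 179 of 418 tested genes rose and 55 fell (302 and 20 with TPM), with a relative median of 0.28 (0.18 without the filter), and of those with plant-type cell wall, a term picked after its values were seen, 114 of 205 tested genes rose and 21 fell (160 and 9 with TPM), with a relative median of 0.53 (0.29 without the filter). The enzyme families of the wall differed in their counts. Of the xyloglucan endotransglycosylases, which cut and rejoin the wall's xyloglucan, 4 of 8 tested genes rose and 1 fell (7 and 1 with TPM). Their relative median was 1.22 (0.57 without the filter). The gene with the largest rise had 5.62, 5.18 and 5.99 scaled FPKM in CK and 43.1, 41.4 and 39.1 in ST, and the one that fell, which was much more abundant in CK, had 207, 215 and 173 in CK and 66.4, 71.01 and 61.8 in ST. Of the beta-galactosidase genes, also picked in this way, 12 of 17 tested genes rose and 1 fell (14 and 0 with TPM), and of the 11 genes with the term syncytium formation, picked likewise, 9 rose and none fell. Of the pectinesterases, which remove methyl groups from pectin, 8 of 22 tested genes rose and 5 fell (16 and 3 with TPM), and of the polygalacturonases, which cut pectin, 1 of 5 tested genes rose and 0 fell (3 and 0 with TPM). The pectinesterase with the largest rise had 0.0488, 0 and 0 scaled FPKM in CK and 36.4, 136 and 83.2 in ST. Of the cellulose synthesis genes, 5 of 28 rose and 7 fell, near or below the shares of all genes (rises were 3 without CK1, 8 without CK3 and 8 without ST2), although with TPM 15 rose and 5 fell.

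**Figure D4:**
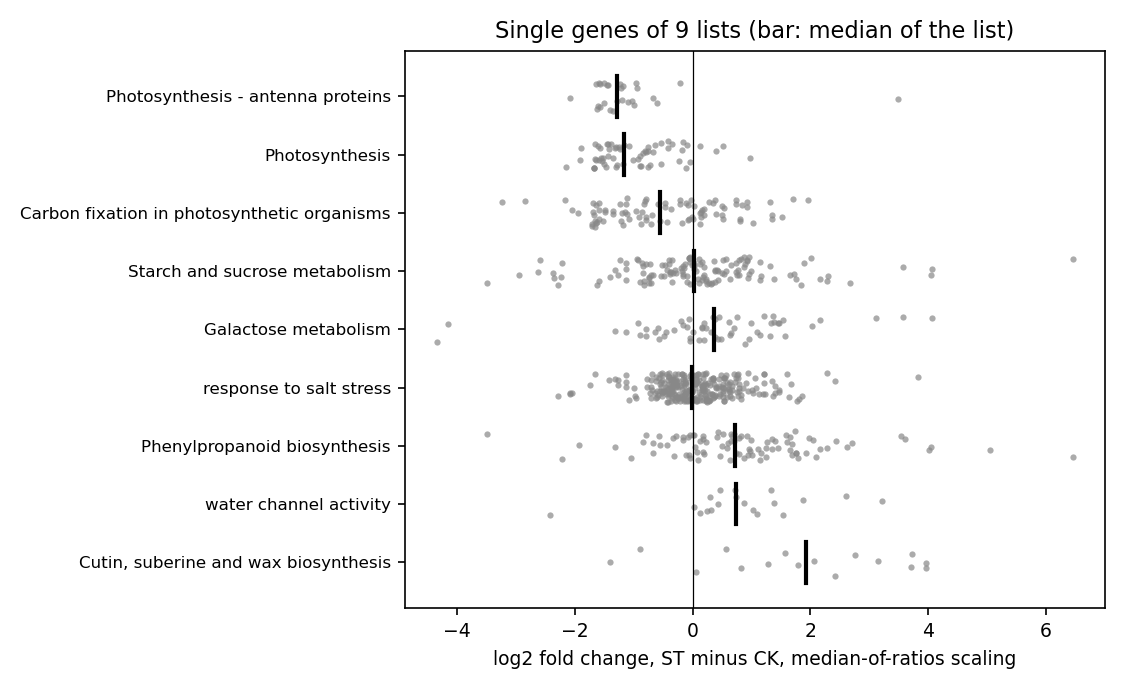
Log2 fold change (ST minus CK) of each tested gene of 9 lists, with 1 point a gene (spread vertically for visibility) and a black bar at the median of the list. Antenna genes form a tight cloud near their median with 1 gene at 3.48, while starch and sucrose genes spread on both sides of 0 and cutin genes lie mostly above it.

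Transport of water, polyols and sugars rose, while the terms for ion transport were more mixed. Of the water channels, the aquaporin family, 11 of 19 tested genes rose and 1 fell (16 and 1 with TPM), with a relative median of 0.72 (0.43 without the filter). The gene with the largest rise had 2.29, 0.587 and 5.16 scaled FPKM in CK and 50.5, 12.1 and 36.8 in ST, a log2 fold change of 3.21 (SE 0.55, limma adjusted p = 0.00092), with ST1 and ST3 far above ST2. Of the sugar transporters, 18 of 44 tested genes rose and 9 fell (32 and 5 with TPM), with a relative median of 0.31 (0.12 without the filter, over 68 genes). Their largest rise was that of a plasma membrane sugar and proton symporter that is also annotated with myo-inositol transport, with 0.698, 0.126 and 1.63 scaled FPKM in CK and 57.9, 92.1 and 81.1 in ST (log2 fold change 5.48, SE 0.28, limma adjusted p = 5.6e-07). Of the 7 genes with myo-inositol transporter activity 5 rose and none fell, a term chosen after its values were seen. Its relative median was 0.94, and 0.28 over 11 genes without the filter.

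For potassium, 17 of 53 tested genes rose and 11 fell (34 and 2 with TPM), and falls were 7 without CK1 and 7 without ST3. One of them, a plasma membrane antiporter gene that also carries the term leaf senescence, was nearly silent in CK, with 0.0426, 0.218 and 0.165 scaled FPKM in CK and 53.9, 209.5 and 154 in ST (fitted log2 fold change 6.74, SE 0.7, limma adjusted p = 3.8e-05). It is 1 of the genes in the summed level of the leaf senescence term, which was higher in ST and varied more there. For sodium, 2 of 9 tested genes rose and 2 fell (6 and 0 with TPM). Antiporters as a group had 14 of 65 higher and 18 lower, close to the shares of all genes (rises were 9 without CK1 and 9 without ST3), and with TPM 33 and 8. Of the genes with the term vacuole, the store for salt and defence proteins, 266 of 826 tested genes rose and 142 fell (578 and 53 with TPM), with a relative median of 0.14 (0.09 without the filter).

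Hormone lists held strong changes in both directions. On the map of plant hormone signal transduction, 72 of 236 tested genes rose and 51 fell (135 and 26 with TPM), with a relative median of 0.06. Its largest rise was a protein phosphatase gene shared with the MAPK map, with 3.08, 1.93 and 2.80 scaled FPKM in CK and 32.8, 84.9 and 64.2 in ST (log2 fold change 4.01, SE 0.3, limma adjusted p = 4.6e-06). Its largest fall was a gene annotated as a kinase and phosphorelay response regulator, with 15.8, 21.5 and 11.8 scaled FPKM in CK and 0.947, 4.49 and 2.94 in ST. Of the 7 tested genes of ethylene biosynthesis, a term chosen after its values were seen, 5 rose and 2 fell (5 and 1 with TPM). The relative median of the term was 2.34 (0.89 without the filter). A gene for 1-aminocyclopropane-1-carboxylate synthase, which makes the precursor of ethylene, had 0.384, 0.131 and 0.289 scaled FPKM in CK and 22.2, 37.6 and 23.7 in ST (log2 fold change 4.47). Another gene of the term had 68.3, 69.04 and 70.1 scaled FPKM in CK and 2.01, 8.20 and 4.20 in ST (log2 fold change -3.74). On the brassinosteroid map, 10 of 17 tested genes rose and 1 fell (12 and 0 with TPM), with a relative median of 0.67 (0.3 without the filter). Its largest rise, a steroid hydroxylase gene annotated with brassinosteroid homeostasis, had 0, 0 and 0.185 scaled FPKM in CK and 2.98, 22.8 and 15.8 in ST.

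Immune and calcium signalling leaned towards falls relative to all genes. On the plant-pathogen interaction map, 67 of 190 tested genes fell and 32 rose, with a relative median of -0.11 (-0.05 without the filter), but with TPM 41 fell and 84 rose. Its largest fall was a calcium-binding gene with 121, 118 and 107 scaled FPKM in CK and 7.56, 13.5 and 10.5 in ST (log2 fold change -3.36, SE 0.16, limma adjusted p = 4.5e-07). Of the genes with calcium ion binding, 41 of 101 fell and 18 rose (with TPM 28 and 42). The MAPK map had 37 of 126 higher and 35 lower (76 and 16 with TPM), while of 10 genes with MAP kinase kinase kinase activity, a term chosen after its values were seen, 8 fell and 1 rose, and with TPM 3 and 2. Chitinase genes, which attack fungal walls, split into 4 of 7 that rose and 3 that fell, and the one with the largest rise reached 364, 1613 and 1493 scaled FPKM in ST from 18.7, 20.9 and 14.7 in CK.

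Of the 1069 tested genes with DNA-binding transcription factor activity, 261 rose and 286 fell, close to the shares of all genes, and with TPM 535 rose and 151 fell. The largest rise among them had 6.57, 5.64 and 6.06 scaled FPKM in CK and 112, 248 and 167 in ST (log2 fold change 4.57, SE 0.23, limma adjusted p = 5e-07). The largest fall had 20.5, 14.4 and 16.6 in CK and 0, 0.229 and 0 in ST (log2 fold change -4.07, SE 0.23, limma adjusted p = 9e-07), so that its transcript was at 0 in ST1 and ST3 and the fitted value depends on the pseudocount. Protein kinase genes were also near the background, with 178 of 671 higher and 154 lower (395 and 71 with TPM). The circadian map had 6 of 57 genes higher and 18 lower, and with TPM 29 and 3. Its falls numbered 9 without CK1, 11 without CK2 and 9 without ST3.

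Genes annotated with responses to salt and drought had no common direction. Of those with response to salt stress, 74 of 292 tested genes rose and 76 fell, near the 22.9% and 24.2% of all genes, with a relative median of -0.01. Response to osmotic stress (83 and 84 of 332), to water deprivation (46 and 48 of 161) and to abscisic acid (57 and 61 of 228) were divided in the same way. With TPM the rises outnumbered the falls in all 4 terms, as they did among all genes. Single members changed strongly. A metal-binding gene annotated with cold acclimation, water deprivation and abscisic acid had 0.592, 0.788 and 2.41 scaled FPKM in CK and 35.1, 47.8 and 33.7 in ST (log2 fold change 4.21, SE 0.27, limma adjusted p = 1.8e-06). A gene with the term ubiquitin-like protein transferase, the member of the abscisic acid term that fell most, had 102, 115 and 87.4 scaled FPKM in CK and 18.1, 23.6 and 17.5 in ST.

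Response to oxidative stress leaned towards falls, with 98 of 243 tested genes lower and 49 higher (53 and 104 with TPM), and response to heat likewise, with 39 of 110 lower and 13 higher (21 and 41 with TPM). Superoxide dismutases, which detoxify superoxide, had 5 of 9 genes lower and 2 higher, and with TPM 1 and 4. Their falls numbered 2 without CK1, 3 without CK2, 3 without CK3 and 3 without ST1. The summed level of the 10 genes of the term was nevertheless higher in ST, with 678, 688 and 586 scaled FPKM in CK and 707, 755 and 772 in ST. One had 56.7, 32.1 and 124 scaled FPKM in CK and 7.40, 7.89 and 8.81 in ST, with a large spread within CK. Another had 135, 139.8 and 71.5 scaled FPKM in CK and 192, 170.2 and 189 in ST. On the glutathione map, 26 of 73 tested genes rose and 15 fell (51 and 7 with TPM), and its largest rise had 0.810, 0.947 and 1.90 scaled FPKM in CK and 29.00, 188 and 159 in ST, with ST1 far below the other ST libraries. Peroxidase genes had 12 of 26 higher and 5 lower (16 and 3 with TPM), with a relative median of 0.29 (0.0 without the filter, over 44 genes). The ascorbate map had 18 of 55 higher and 19 lower (28 and 14 with TPM), and its largest fall, a GDP-galactose guanylyltransferase gene of vitamin C synthesis, had 768, 785 and 708 scaled FPKM in CK and 211, 232 and 217 in ST (log2 fold change -1.77, SE 0.086, limma adjusted p = 4.6e-07).

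The proteasome, the protease that degrades ubiquitin-tagged proteins, shifted by little but in a common direction. Of 84 tested genes on its map 27 rose and 2 fell, with a relative median of 0.15, and with TPM 77 rose and 1 fell. Rises were 18 without ST3. Its largest rise among genes with a mean of at least 5 scaled FPKM was from 23.9, 22.1 and 28.99 scaled FPKM in CK to 33.3, 35.9 and 39.3 in ST, and 3 members of lower level rose by at least 2-fold. Protein processing in the endoplasmic reticulum (47 of 254 higher, 41 lower), ubiquitin-mediated proteolysis (28 of 157 and 27), the spliceosome (35 of 246 and 47), nucleocytoplasmic transport (17 of 136 and 23) and endocytosis (33 of 202 and 55) had relative medians within 0.05 of 0 and fewer rises than the background. Their falls, in this order, were 16.1%, 17.2%, 19.1%, 16.9% and 27.2%. All but endocytosis thus also had fewer falls than the 24.2% of all genes. With TPM rises outnumbered falls on all 5 maps. When 1 library was left out, the rises of the spliceosome were 23 without ST3, those of nucleocytoplasmic transport 10 without CK1, 8 without ST2 and 10 without ST3, and the falls of endocytosis 36 without ST3.

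Over all 114 KEGG maps with at least 10 tested genes, more genes rose than fell on 64 and more fell than rose on 47. At least 40% of the tested genes rose on 25 maps and at least 40% fell on 17. TPM multiplies all genes of a library by 1 factor, so that medians relative to all genes can differ between the scalings only through the pseudocount, and they differed by at most 0.09. The median was above 0 under both scalings on 67 maps and below 0 under both on 6, and it changed sign on 39. Of the 3981 GO terms with at least 5 tested genes, 52 had at least 70% of their genes higher and 82 at least 70% lower, many of them sharing genes with one another. Annotation bounds these counts, since 12567 of the tested genes carried a GO term, 5066 a KEGG map and 8977 neither.

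The 3 ST libraries differed in how far the induced genes had risen, and ST3 was the highest or the lowest less often than the other two. Of the 1700 genes that rose by at least 2-fold, 733 were highest in ST1, 680 in ST2 and 287 in ST3, and 764, 687 and 249 were lowest there. That order was not particular to induced genes, since of all 22672 genes 38.8% were highest in ST1, 38.5% in ST2 and 22.7% in ST3. The median SD within ST was 0.327 on the log2 scale for the genes that rose by at least 2-fold. It was 0.171 for those that fell by at least 2-fold and 0.156 for all genes. Within CK it was 0.223 for the genes that rose by at least 2-fold and 0.145 for all genes. Lists differed in which ST library was most often the highest. Of all 5185 genes that rose, 41.1% were highest in ST1, 37.1% in ST2 and 21.8% in ST3. The lists named next were picked from the 216 with their values known. The genes that rose were highest in ST1 in 9 of 12 cases on the cutin map, 10 of 13 in fatty acid elongation, 79 of 114 with the term plant-type cell wall and 8 of 11 among water channels. They were highest in ST2 in 11 of 14 cases among antiporters, 14 of 26 on the glutathione map, 12 of 20 in fatty acid degradation and 10 of 18 in the citrate cycle. The labels give no date, position or age that separates ST1 from ST2.

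**Figure D5:**
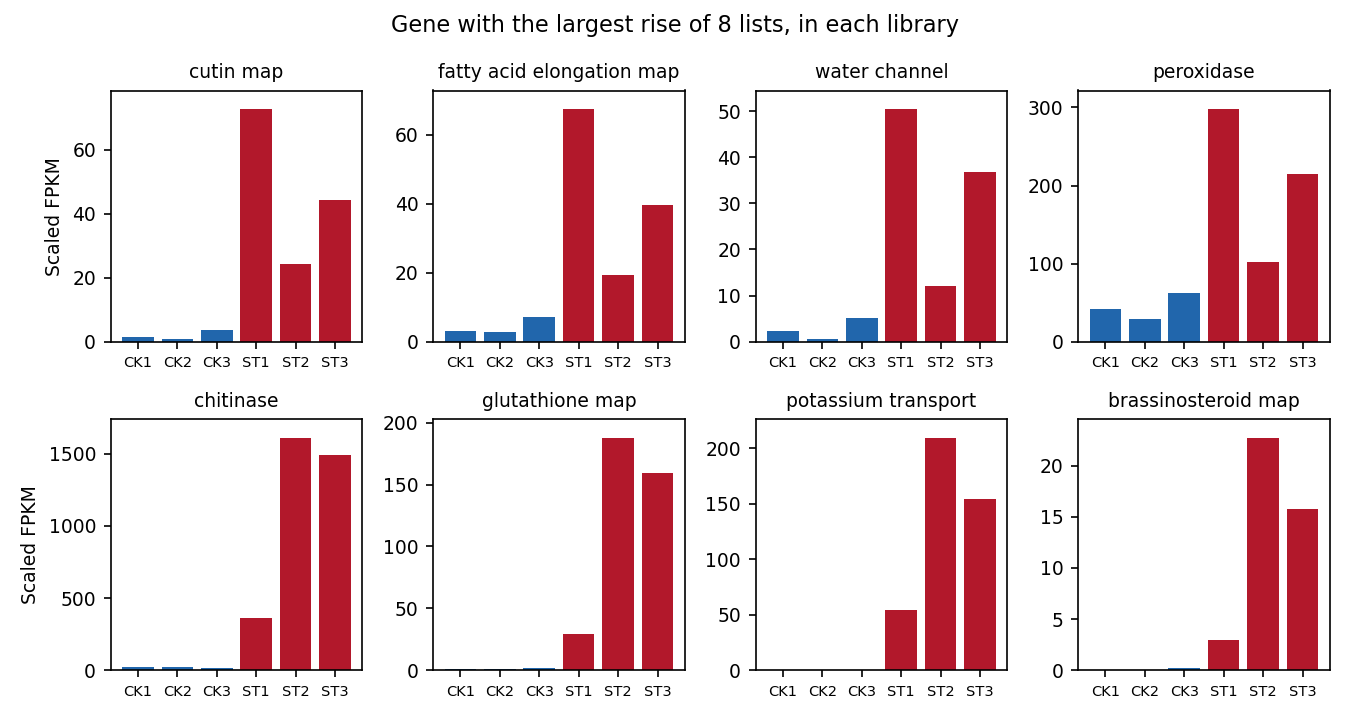
Scaled FPKM in each of the 3 CK (blue) and 3 ST (red) libraries of the gene with the largest rise in 8 lists, each panel with its own linear axis from 0. In the upper row (cutin, fatty acid elongation, water channel, peroxidase) ST1 is the highest and ST2 the lowest ST library, and in the lower row (chitinase, glutathione, potassium transport, brassinosteroid) ST1 is the lowest and ST2 the highest. The 8 lists were picked to show these orders, with their values known.

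Of the 432 counts of genes that rose or fell over 216 lists, 17 to 47 moved by more than 1.5 times when 1 library was left out, and those of at least 5 genes among the counts printed above are given beside them. Other counts varied less. When any 1 of the 6 CK and ST libraries was left out, 11 to 13 of the 16 cutin map genes rose, 46 to 52 of the 92 phenylpropanoid genes and 101 to 115 of the 205 genes of the plant-type cell wall, and 47 to 52 of the 61 photosynthesis genes and 25 of the 27 antenna genes fell.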

How the data were processed

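Leaves of 9 *E. japonica* samples were sequenced by the authors. Per the study's methods and the labels, adapters and low-quality bases were removed (Trim-Galore, Trimmomatic), HISAT2 placed the reads on the JFZ loquat genome, Rsubread counted them, and the authors deposited FPKM values for 43996 genes with GO and KEGG annotation. The sources used here give no versions, strand settings or treatment of reads shared by several genes. The deposited table also holds the authors' own DESeq2 comparisons (fold changes and p-values), which were not used. The biological process terms of 5306 genes were not used here.

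Because the deposited FPKM values move in steps of 1 read, whole reads could be recovered for all 31458 genes above 0 (tolerance 1e-05 reads), adding up to 99.979% to 99.984% of library totals of 13048770 to 14468499 reads. The count test on these reads was an alternative. FPKM was divided by median-of-ratios factors over the genes above 0 in all 9 libraries. The values were compared as log2(scaled FPKM + 1) by limma 3.58.1 under R 4.3.3, using moderated two-sided tests with an intensity trend, group as the only term and all 9 libraries. The Benjamini-Hochberg adjustment ran over 22697 genes, of which 25 TIFY genes (26 identifiers in the study) were left out of every count. A gene was called at an adjusted p of at most 0.05, and p-values measure only the spread between these samples. No list was tested as a set. Lists share genes with one another.

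The members and gene lists were chosen with earlier results of these data known. Identifiers were printed for the 2 largest rises and the 2 largest falls among genes with a mean of at least 5 scaled FPKM, an adjusted p of at most 0.05, no overlap between CK and ST and a KEGG map. In each list the genes described are the ones with the largest rise and the largest fall at that level and adjusted p. The script was tested on simulated data. Intervals of read ratios are exact (Clopper-Pearson) and cover counting error only. The closing section gives the effect of 16 alternatives. Tables and plots were made in Python 3.11.15, with numpy 2.4.6, with pandas 2.3.3 and with matplotlib 3.10.9.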

Additional observations from a re-analysis of the deposited data

How the results depend on the processing

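The counts of changed genes stayed within 1.5 times the main ones under 14 of the 16 alternatives. The exceptions were the scalings to a total. With TPM, 12153 genes were higher and 2457 lower in ST, and 3551 and 782 by at least 2-fold. With FPKM as deposited they were 10919 and 2798, and 2791 and 859. No gene called with median-of-ratios scaling was called in the opposite direction under any alternative, apart from 40 genes with TPM and 2 with FPKM as deposited, which had been lower and became higher. Leaving out each CK or ST library in turn gave 4187 to 5104 genes higher and 4581 to 5407 lower (8793 to 10511 in all), and 1649 to 1838 and 1568 to 1721 by at least 2-fold. With the replicate number as a replicate block, 4971 genes were higher and 5227 lower. Libraries of CK and ST with the same number did not deviate together (correlations of -0.025, 0.086 and 0.034), so they were not treated as pairs. Limma-voom on the recovered reads gave 5022 higher and 5482 lower, of which 4873 and 5328 were the same genes. Of the 216 lists with at least 5 tested genes, the more frequent direction turned under at least 1 alternative in 89, in 57 of them only with TPM or FPKM as deposited. Medians of lists relative to all genes moved by more than the spread between replicates in 87 lists without the filter on low values and in 82 with a filter of FPKM 5. The median of 8 lists changed sign without the filter. Ej00073557 lost its call with limma-voom (adjusted p = 0.17), and the other 3 printed genes kept theirs under all 16 alternatives. A gene of the median length of 1466 bases at an FPKM of 1 rests on about 19.1 reads in the smallest library.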

Other observations

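Some maps of cofactor synthesis, not described above and picked after their values were seen, were lower, while others were not. On the map of vitamin B6 metabolism 11 of 18 tested genes fell and 0 rose, on thiamine metabolism 14 of 29 fell and 1 rose, and on riboflavin metabolism 10 of 17 fell and 1 rose. With TPM the falls and rises were 7 and 2, 6 and 10, and 3 and 3. Against these, 11 of 22 tested genes of biotin metabolism rose and 3 fell. Of pantothenate and CoA biosynthesis, 19 of 43 rose and 8 fell, and of folate biosynthesis 8 of 34 rose and 11 fell. Of 6 genes for the sequestering of iron within cells, 5 fell under both scalings, and the one with the largest fall, an iron-binding gene of the chloroplast stroma, had 156, 159 and 147 scaled FPKM in CK and 28.5, 30.7 and 29.8 in ST.

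Some further maps, named with their values known, leaned towards rises. Of other glycan degradation 14 of 21 genes rose and 3 fell (17 and 0 with TPM). Of tyrosine metabolism 23 of 45 rose and 8 fell (32 and 4 with TPM). Of valine, leucine and isoleucine degradation 20 of 52 rose and 9 fell (36 and 4 with TPM). Lysine degradation leaned the same way, as 26.5% of its genes rose and 12.2% fell, with a relative median of 0.14. RNA degradation did so less, with 19.8% and 15.1%, both below the shares of all genes, and a relative median of 0.02. The terms for iron sequestering and for basipetal auxin transport were picked because at least 70% of their genes moved in the same direction, and all 5 genes of the latter rose under both scalings. By recovered reads, without scaling, 33 of the 22672 tested genes had no read in the 3 CK libraries and at least 10 in each ST library. The opposite pattern was found for 2 genes. The scaling factors were 1.12 to 1.14 in ST and 0.860 to 0.878 in CK, so the same scaled level gives more reads in ST. Genes without a read in a group passed the filter only through libraries of the other groups.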
